A study of Mus musculus with 30 samples.

Results

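The genes described are those for the receptors through which neurons sense glutamate, GABA and glycine, measured in mouse retinal ganglion cells after the optic nerve was crushed. They were chosen by gene symbol alone: the AMPA (Gria), NMDA (Grin), kainate (Grik) and metabotropic (Grm) glutamate receptors form the excitatory set of 24 genes, and the GABA-A (Gabra, Gabrb, Gabrd, Gabrg), GABA-rho (Gabrr), GABA-B (Gabbr) and glycine receptors (Glra, Glrb) the inhibitory set of 21 genes. These 45 genes are among 13752 genes with counts, and all 45 passed the filter on low counts, as did 13737 genes in all. The symbol rule used no measured value, though earlier results of these data were known when the set was chosen.

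Retinal ganglion cells are the output neurons of the retina, whose axons make up the optic nerve. The cells were dissociated with papain and sorted by flow cytometry from C57BL/6 mice. RNA-seq covered cells without crush (day 0) and cells taken 1, 2, 3 and 4 days after crush, with 3, 3, 2, 3 and 2 libraries analysed, and ATAC-seq, which reads open chromatin from where a transposase cuts, covered day 0, day 1 and day 3 with 6, 3 and 6 libraries. No transgene, knockout or drug is named for these groups, and the age of the mice is not given in the sources used here. Of the day 0 RNA libraries, 2 carry the strain names C57BL/7 and C57BL/8, and they were kept in the day 0 group that their titles give. The labels list 15 RNA samples, and replicate 3 of day 2 and replicate 1 of day 4 were not analysed here. For all 15 ATAC samples the description names a peak file of another library than the title does. The ATAC groups follow the titles, which match the treatment labels, and this mismatch in the labels could not be settled. Nothing in the labels says whether libraries of a day came from separate animals, so p-values measure the spread between these libraries.

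Total RNA counts ran from 19024286 to 27561352 per library. All 11 ganglion cell markers on a list were detected in every library, with summed levels of 10551 to 11700 CPM (counts per library, scaled to a common library size with edgeR's TMM factors) on day 0 and 6498 to 6806 on day 4. Markers of other retinal cells were lower but present: the summed level ran from 219 to 1016 CPM for 6 rod markers, from 179 to 610 for 6 amacrine markers and from 128 to 174 for 8 bipolar markers, of which Prkca alone held 113 to 154 CPM and each of the other 7 lay below 10 CPM. The 8 microglia markers summed to 37.8 to 68.7 CPM on day 0, 54.4 to 295 on day 1, 134 to 163 on day 2, 21.6 to 31.8 on day 3 and 97.2 to 161 on day 4. The part of these cells in the receptor results was not tested. In sorted bulk samples, fewer cells of a type and less RNA per cell cannot be told apart.

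Glutamate released by bipolar cells opens AMPA, kainate and NMDA receptor channels on ganglion cell dendrites, and metabotropic glutamate receptors act through G proteins instead. GABA and glycine from amacrine cells open chloride channels, the GABA-A and GABA-rho receptors and the glycine receptors, while GABA-B receptors couple to G proteins. Each receptor channel is built from several subunits, so the mix of subunits sets its kinetics and drug sensitivity and, for glutamate channels, calcium permeability. After axon injury many ganglion cells die, and synapses on their dendrites are known to be lost early.

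Promoter sequences were printed for 6 members to show the regions on which the RNA and chromatin results below bear. Gria2, Gabbr2, Gabrg1 and Gabra5 were called lower on day 3 both in transcript and in promoter accessibility, and all 4 promoter calls were lost without the batch term or with the fraction of reads in peaks as a term. Grik3 had a higher transcript count, and the Grm7 window holds a transcription factor footprint. Each run is the 250 bases before the annotated start, 5′ to 3′ on the gene's strand, from RefSeq on GRCm38.p6. The windows are chr3:80802836-80803085 (minus strand), chr4:46991715-46991964 (minus), chr5:70842618-70842867 (minus), chr7:57510060-57510309 (minus), chr4:125490446-125490695 (plus) and chr6:110645262-110645511 (plus). All 6 lie inside an ATAC peak assigned to the same gene. Capitals mark GC boxes (GGGCGG) and CCAAT boxes (CCAAT) on either strand, and in Grm7 only the footprint site.
Gria2: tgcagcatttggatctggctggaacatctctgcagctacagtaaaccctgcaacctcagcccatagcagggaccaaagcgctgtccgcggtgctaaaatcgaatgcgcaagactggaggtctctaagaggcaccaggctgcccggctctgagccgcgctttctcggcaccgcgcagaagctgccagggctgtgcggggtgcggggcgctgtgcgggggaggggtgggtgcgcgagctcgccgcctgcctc
Gabbr2: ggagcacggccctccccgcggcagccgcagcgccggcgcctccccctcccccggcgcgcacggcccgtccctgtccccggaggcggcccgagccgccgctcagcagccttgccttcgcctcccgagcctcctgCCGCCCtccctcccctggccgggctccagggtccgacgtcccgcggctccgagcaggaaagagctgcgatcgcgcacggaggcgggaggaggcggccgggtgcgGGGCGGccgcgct
Gabrg1: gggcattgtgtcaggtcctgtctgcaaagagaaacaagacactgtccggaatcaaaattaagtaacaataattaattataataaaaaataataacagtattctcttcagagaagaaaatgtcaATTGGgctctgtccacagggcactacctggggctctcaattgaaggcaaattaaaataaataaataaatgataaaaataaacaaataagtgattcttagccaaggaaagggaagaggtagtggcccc
Gabra5: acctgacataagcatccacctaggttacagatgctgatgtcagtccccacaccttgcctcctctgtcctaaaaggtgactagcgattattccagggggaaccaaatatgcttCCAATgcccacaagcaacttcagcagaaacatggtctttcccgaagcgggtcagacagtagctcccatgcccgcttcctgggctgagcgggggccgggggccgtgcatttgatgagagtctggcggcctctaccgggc
Grik3: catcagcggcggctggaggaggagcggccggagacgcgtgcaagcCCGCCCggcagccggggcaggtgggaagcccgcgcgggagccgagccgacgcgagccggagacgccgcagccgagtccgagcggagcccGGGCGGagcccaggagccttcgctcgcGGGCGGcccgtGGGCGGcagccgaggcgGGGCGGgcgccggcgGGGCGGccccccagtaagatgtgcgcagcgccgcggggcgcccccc
Grm7: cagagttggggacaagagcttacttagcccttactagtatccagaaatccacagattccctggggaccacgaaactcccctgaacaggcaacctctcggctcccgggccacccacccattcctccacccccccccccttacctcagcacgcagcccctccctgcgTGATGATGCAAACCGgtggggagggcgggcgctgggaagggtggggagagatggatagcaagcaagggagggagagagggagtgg

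The windows differ widely in base composition, from 35.6% G and C in Gabrg1 to 82.0% in Grik3, which holds 6 GC boxes. The Gria2 window holds neither motif. RefSeq windows were matched for 31 of the 45 genes. These genes had 38 windows, and a gene was counted if any of its windows held the motif. The shares of all windows count single windows instead, so the 2 measures are not alike and the difference favours the genes. A GC box stood in the windows of 8 of 15 matched excitatory and 10 of 16 inhibitory genes, against 32.7% of all 32851 windows. A CCAAT box stood in 4 of 15 excitatory and 9 of 16 inhibitory genes, against 33.8% of all windows. The AP-1 motif TGANTCA was found in 2 excitatory genes and in no inhibitory gene, against 6.7% of all windows, and the cyclic AMP response element TGACGTCA in no member, against 1.5%. A match of letters is a description and shows no binding.

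Receptor transcripts fell over the 4 days on both sides. On day 1 edgeR's quasi-likelihood test called 9 of 45 members lower (20.0%) and 0 higher at an adjusted p under 0.05, where 5.45% of all genes were called lower and 5.93% higher. On day 2 the calls were 18 lower (40.0%) and 1 higher, against 14.5% and 14.8% of all genes. On day 3 they were 28 lower (62.2%) and 3 higher, against 20.1% and 20.4%. On day 4, 31 members were lower (68.9%) and 1 higher, against 19% and 19.8% of all genes. The median log2 fold change of the members was -0.27, -0.38, -0.80 and -1.03 on days 1 to 4, while the median of all genes stayed between 0.01 and 0.06. A joint test over the 4 days called 34 of 45 members, against 47.1% of all genes. For the count of 0 higher on day 1, 16 members in either direction had an unadjusted p under 0.05, and DESeq2 also called 0 members higher.

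**Figure D1:**
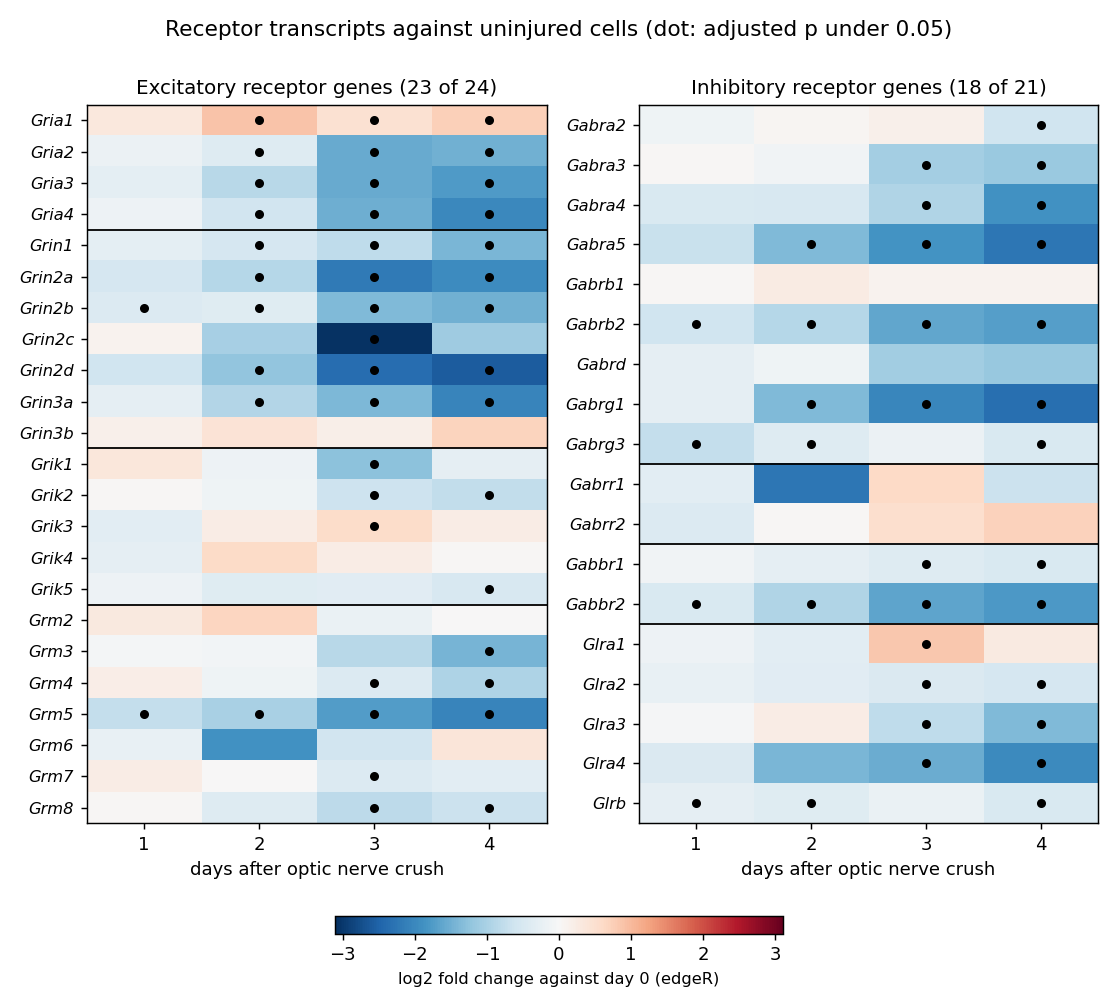
Log2 fold change on days 1 to 4 against day 0 (colour, edgeR) for 41 of the 45 receptor genes, with excitatory genes on the left and inhibitory genes on the right, and a dot where the adjusted p was under 0.05. The dots fill in from day 1 to day 4, nearly all on blue, with Gria1, Grik3 and Glra1 as the red exceptions.

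The 6 genes called lower on each of the 4 days included Gabrb2, Gabbr2, Grin2b and Grm5. Gabrg3 and Glrb, also called on day 1, were not called on day 3 and were called lower again on day 4, for Gabrg3 not without either day 4 library (adjusted p = 0.0545 and 0.0943). The 8 genes called on no single day were Grin3b, Grik4, Grm2, Grm6, Gabrb1, Gabrd, Gabrr1 and Gabrr2. Of these, Gabrb1 alone had a mean above 10 CPM on day 0, so for the others a small change was not detectable at this depth. Between 18 members on day 1 and 33 on day 4 had libraries that did not overlap those of day 0, with 27 on day 2 and 32 on day 3. Among all genes the share without overlap was 28.4%, 53.3%, 47.6% and 57.4% on the 4 days.

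All receptor genes together made up 0.498% to 0.525% of the counts on day 0 and 0.243% to 0.251% on day 4. The 24 excitatory genes summed to 2265, 2182 and 2259 CPM on day 0 and 935 and 979 CPM on day 4. The 21 inhibitory genes summed to 3144, 2948 and 3136 CPM on day 0 and 1464 and 1462 CPM on day 4. The day 4 libraries lay far below day 0 on both sides. Within a library, the excitatory sum divided by the inhibitory sum was 0.721 to 0.740 on day 0, 0.771 to 0.818 on day 1 and 0.812 to 0.834 on day 2, then 0.621 to 0.684 on day 3 and 0.638 to 0.670 on day 4. The ratio thus lay above every day 0 library on days 1 and 2 and below every one on days 3 and 4. These sums are weighted to the genes with the most counts, such as Gria2 and Gria4.

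**Figure D2:**
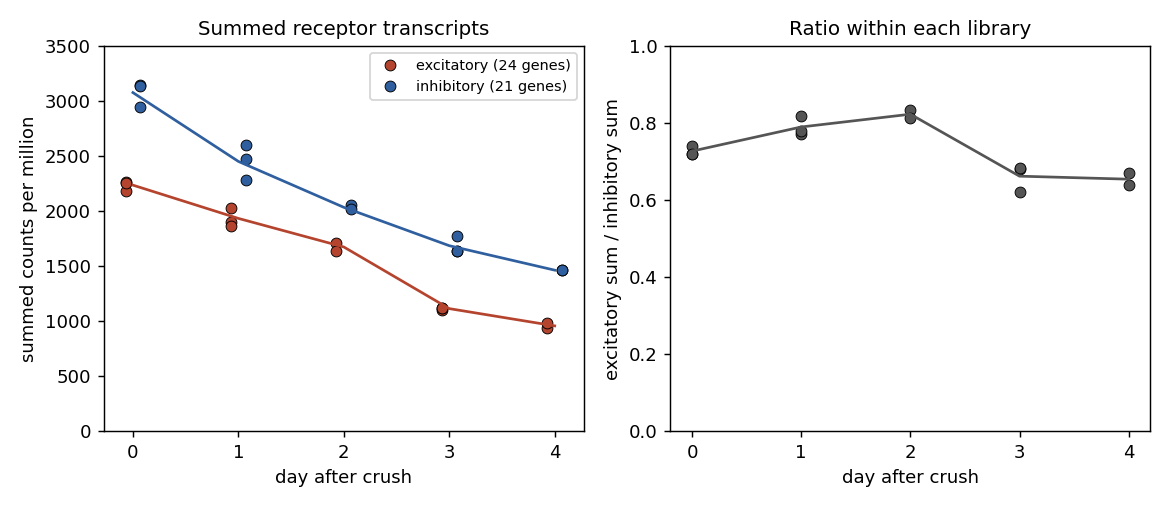
Left, summed CPM of the 24 excitatory (red) and 21 inhibitory (blue) receptor genes in each RNA library by day (points), with lines through the means. Right, the excitatory sum divided by the inhibitory sum in the same libraries, highest on day 2 (0.812 and 0.834) and lowest on day 3 (0.621 to 0.684).

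Gene by gene, members of both sets were called lower on every day. Of the 24 excitatory genes 3, 9, 15 and 15 were called lower on days 1 to 4 (12.5%, 37.5%, 62.5% and 62.5%). Of the 21 inhibitory genes 6, 9, 13 and 16 were (28.6%, 42.9%, 61.9% and 76.2%). The median log2 fold change was -0.18, -0.37, -0.81 and -0.85 for excitatory and -0.29, -0.39, -0.80 and -1.16 for inhibitory genes. The excitatory median minus the inhibitory median was 0.11, 0.02, -0.01 and 0.30, and the same difference computed per library had an SD of 0.156 within days. With metabotropic and GABA-B receptors left out, so that only channel-forming receptors were compared, the difference was -0.52 on day 3 and -0.10 on day 4. With all members included, the difference on day 3 ran from -0.209 to 0.107 when single libraries were left out. The order of the 2 sets thus depended on the day and on whether metabotropic receptors were included, and no test was made of it, since the genes are not replicates.

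Among the AMPA receptors, which carry fast excitation, 1 subunit rose while the other 3 fell. Gria2, the subunit whose edited form keeps AMPA channels impermeable to calcium, stood at 634, 579 and 514 CPM on day 0, 487, 516 and 512 on day 1, 444 and 433 on day 2, 204, 183 and 199 on day 3, and 194 and 216 on day 4. Its counts on days 2, 3 and 4 lay below every day 0 library. The log2 fold change was -0.19 on day 1 (adjusted p = 0.151), -0.39 ± 0.09 (SE, adjusted p = 0.00396) on day 2 and -1.56 ± 0.08 (SE, adjusted p = 2.63e-10) on day 3. Gria4, a subunit of fast-gating channels, stood at 419, 396 and 469 CPM on day 0, 392, 407 and 343 on day 1, 302 and 268 on day 2, 156, 145 and 151 on day 3, and 99.2 and 116 on day 4. Its libraries on days 2, 3 and 4 lay below every day 0 library, and those of day 4 were the lowest. The log2 fold change was -1.50 ± 0.09 (SE, adjusted p = 1.38e-09) on day 3 and -1.99 ± 0.11 (SE, adjusted p = 4.47e-10) on day 4. Gria3 stood at 288, 279 and 266 CPM on day 0, 230.2, 249.8 and 194 on day 1, 164 and 143 on day 2, 92.5, 103 and 87 on day 3, and 72.4 and 91.6 on day 4, with every later library below day 0, and its log2 fold change was -1.56 ± 0.11 (SE, adjusted p = 6.8e-09) on day 3.

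Gria1, the subunit best known from activity-dependent insertion at synapses, stood at 41.2, 33.2 and 40.8 CPM on day 0, 53.6, 44.8 and 46.3 on day 1, 77.7 and 64 on day 2, 48.6, 56.8 and 54 on day 3, and 60.2 and 67.6 on day 4. Every library after crush lay above every day 0 library. Its log2 fold change was 0.33 ± 0.12 (SE, adjusted p = 0.0965) on day 1, which missed the threshold, 0.88 ± 0.13 (SE, adjusted p = 9.6e-05) on day 2, 0.47 ± 0.12 (SE, adjusted p = 0.0054) on day 3 and 0.73 ± 0.13 (SE, adjusted p = 0.000316) on day 4. The count of Gria1 divided by that of Gria2 in the same library was 0.0573 to 0.0794 on day 0, 0.0868 to 0.110 on day 1, 0.148 and 0.175 on day 2, 0.238 to 0.310 on day 3, and 0.311 and 0.313 on day 4. Transcript length differs between genes, so this ratio can be followed over days but is no ratio of molecules. AMPA transcripts as a class summed to 1287 to 1382 CPM on day 0 and to 489 to 502 CPM on day 3.

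NMDA receptors are calcium-permeable channels built from the obligatory subunit Grin1 with Grin2 or Grin3 subunits. Grin1 stood at 231, 206 and 237 CPM on day 0, 168, 178 and 199.5 on day 1, 156 and 156 on day 2, 116, 124 and 148 on day 3, and 88.8 and 80.0 on day 4. Every library after crush lay below day 0, and day 4 was the lowest. The log2 fold change was -0.30 on day 1 (adjusted p = 0.0604), -0.79 ± 0.10 (SE, adjusted p = 6.69e-06) on day 3 and -1.41 ± 0.12 (SE, adjusted p = 5.58e-08) on day 4. Grin2a, which gives NMDA receptors fast deactivation, stood at 36.5, 36.2 and 49 CPM on day 0, 24.9, 28.3 and 32.1 on day 1, 21.8 and 22 on day 2, 9.69, 7.46 and 9.6 on day 3, and 9.3 and 11.6 on day 4. All its libraries after crush lay below day 0, with a log2 fold change of -2.19 ± 0.18 (SE, adjusted p = 3.21e-08) on day 3. Grin2d, which gives slow deactivation, stood at 12.5, 12.8 and 20.7 CPM on day 0, 9.64, 10.3 and 9.99 on day 1, 7.43 and 5.67 on day 2, 5.12, 1.35 and 2.42 on day 3, and 1.98 and 3.22 on day 4, and its log2 fold change on day 3 was -2.37 ± 0.38 (SE, adjusted p = 8.88e-05).

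Grin2b, the NMDA subunit that predominates early in development, was lower on day 1, at -0.42 ± 0.12 (SE, adjusted p = 0.0326), the 1 NMDA call of that day in this fit. DESeq2 also called Grin1 and Grin2a (adjusted p = 0.00987 and 0.0168), and 7 of 21 alternatives removed the call of Grin2b (adjusted p from 0.0642 to 0.129), including the fits that left out replicate 2 or 3 of day 0 or replicate 1 or 3 of day 1. It was -0.38 on day 2 (adjusted p = 0.0431), a call that 11 of 21 alternatives removed (adjusted p from 0.0504 to 0.291), including leaving out either day 2 library, and -1.36 ± 0.12 (SE, adjusted p = 1.28e-07) on day 3. The count of Grin2b divided by that of Grin2a was 1.88 to 2.88 on day 0 and 3.41 to 4.94 on day 3, without overlap, and 2.69 and 3.47 on day 4. Grin3a, a subunit that lowers calcium entry, fell from 59.2, 60.2 and 83.3 CPM on day 0 to 16.8 and 16 CPM on day 4 (-2.04 ± 0.19 SE, adjusted p = 1.65e-07). Grin2c stood at 1.57, 0.648 and 1.44 CPM on day 0, 0.974, 1.41 and 1.53 on day 1, 0.467 and 0.715 on day 2, 0.168, 0.131 and 0.125 on day 3, and 0.149 and 0.995 on day 4, and its log2 fold change of -3.06 ± 0.77 (SE, adjusted p = 0.00438) on day 3, the largest fall of any member on that day, rests on few counts. On day 4 Grin2c was not called (-1.11, adjusted p = 0.292), and its 2 libraries differed several-fold. Grin3b stayed at 0.379 to 2.73 CPM and was not called on any day.

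Kainate receptors, which tune transmission on both sides of the synapse, had 2 of 5 genes called lower and 1 higher on day 3. Of all genes 20.1% were called lower and 20.4% higher on that day, so 1 of 5 higher was near the share of all genes. Grik3, a subunit that can form channels by itself, stood at 78.9, 86 and 94.1 CPM on day 0, 69.4, 75.4 and 61 on day 1, 89.1 and 115 on day 2, 107, 156 and 122 on day 3, and 104 and 99.3 on day 4. The day 1 libraries lay below day 0 and the day 3 libraries above it. Its log2 fold change was -0.33 on day 1 (adjusted p = 0.129), 0.57 ± 0.14 (SE, adjusted p = 0.00268) on day 3 and 0.24 on day 4 (adjusted p = 0.233), and day 3 against day 1 differed by 0.90 ± 0.14 (SE, adjusted p = 6.1e-05). Grik1, which forms the kainate receptors of some retinal bipolar cells as well, stood at 12.5, 9.67 and 13.5 CPM on day 0, 14.6, 16.1 and 14.7 on day 1, 10.7 and 10.5 on day 2, 3.98, 4.41 and 6.31 on day 3, and 9.75 and 9.85 on day 4. The day 3 libraries lay below all others, with a log2 fold change of -1.28 ± 0.22 (SE, adjusted p = 0.000157), and on day 4 the value was -0.28 (adjusted p = 0.39).

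Grik2 went from 38.9, 29.1 and 24.9 CPM on day 0 to 21.3, 13.3 and 24.4 on day 3 (-0.65 ± 0.21 SE, adjusted p = 0.021). The call was lost without day 0 replicate 1 or without day 3 replicate 2 (adjusted p at least 0.089). The high-affinity subunits Grik4 and Grik5, which need a partner to form channels, had no call before day 4 in this fit. Grik5 was called on day 4 (-0.49 ± 0.18 SE, adjusted p = 0.0365). That call was lost in 6 of 21 alternatives (adjusted p from 0.0725 to 0.214), among them those without replicate 2 or 3 of day 0 or without either day 4 library, and a day 3 call was gained without day 0 replicate 1 or day 3 replicate 2 (adjusted p = 0.0317 and 0.0292). Grik4 stood between 1.96 and 5.76 CPM in all libraries.

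Metabotropic glutamate receptors fall into a group coupled to calcium release, which holds Grm5, and groups that lower cyclic AMP (Grm2, Grm3, Grm4, Grm6, Grm7 and Grm8). Grm5 stood at 34.3, 33.8 and 28 CPM on day 0, 18.8, 18 and 21.1 on day 1, 13.8 and 18.2 on day 2, 9.31, 9.65 and 9.77 on day 3, and 8.33 and 7.15 on day 4. Every library after crush lay below day 0, and the log2 fold change went from -0.73 ± 0.16 (SE, adjusted p = 0.00764) on day 1 to -1.74 ± 0.17 (SE, adjusted p = 2.52e-07) on day 3 and -2.05 ± 0.20 (SE, adjusted p = 2.79e-07) on day 4.

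The presynaptic-type receptors Grm4, Grm7 and Grm8 were at or above their day 0 means on day 1 and lower on day 3. Grm8 went from 26.1, 17.4 and 24.5 CPM on day 0 to 15.5, 9.12 and 13.9 on day 3 (-0.82 ± 0.21 SE, adjusted p = 0.00417). Grm4 went from 34.7, 48.3 and 43.2 CPM to 29.1, 33.2 and 31.4 (-0.43 ± 0.14 SE, adjusted p = 0.025) and on day 4 to 23.2 and 20.3 (-0.95 ± 0.17 SE, adjusted p = 0.000209). Grm7 was lower on day 3 only (-0.43 ± 0.14 SE, adjusted p = 0.0231), and on day 4 its value was -0.32 (adjusted p = 0.128). The day 3 calls of Grm4 and Grm7 were lost when scaling used library size alone (adjusted p = 0.0564 and 0.061). Both were also lost without day 0 replicate 2 and without day 3 replicate 1 or 3, and that of Grm4 without day 0 replicate 3 (adjusted p from 0.0531). Grm2, Grm3 and Grm6, the last known as the receptor of ON bipolar cells, stood below 7 CPM in every library, and of these Grm3 was called, on day 4 (-1.44 ± 0.55 SE, adjusted p = 0.0489). The Grm3 call was lost in 12 of 21 alternatives (adjusted p from 0.0519 to 0.2), among them leaving out either day 4 library or day 0 replicate 1 or 2.

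GABA-A receptors are chloride channels, most often built of alpha, beta and gamma subunits. Of their 12 genes 8 were called lower on day 3 and 10 on day 4, against 20.1% and 19% of all genes. Gabrb2, a beta subunit of many adult receptors, stood at 436, 432 and 441 CPM on day 0, 302, 302 and 251 on day 1, 236 and 238 on day 2, 145, 146 and 138 on day 3, and 136 and 132 on day 4. No library after crush reached the day 0 range, and the log2 fold change was -0.61 ± 0.08 (SE, adjusted p = 7.56e-05) on day 1, -0.88 ± 0.09 (SE, adjusted p = 1.37e-06) on day 2 and -1.61 ± 0.08 (SE, adjusted p = 9.89e-11) on day 3.

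Gabrg1 stood at 57.5, 65.5 and 74.9 CPM on day 0, 61.5, 56.4 and 45.1 on day 1, 26.2 and 25.3 on day 2, 16, 16.5 and 16.1 on day 3, and 10.9 and 15.3 on day 4. Its 3 day 3 libraries lay close together and far below day 0, and the log2 fold change of -2.03 ± 0.15 (SE, adjusted p = 1.53e-08) was the largest of the class on that day. Gabra5, the alpha subunit of many extrasynaptic receptors, stood at 7.96, 11.2 and 5.99 CPM on day 0, 6.15, 4.51 and 4.9 on day 1, 4.25 and 2.28 on day 2, 1.38, 3.4 and 2.21 on day 3, and 2.02 and 1.52 on day 4, with a log2 fold change of -1.84 ± 0.39 (SE, adjusted p = 0.00108) on day 3.

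Gabrg3, another gamma subunit, stood at 121, 128 and 114 CPM on day 0, 81.7, 80.8 and 55.8 on day 1, 95.8 and 88.5 on day 2, 113, 94.7 and 112 on day 3, and 89 and 84.8 on day 4. It was lowest on day 1 (-0.73 ± 0.13 SE, adjusted p = 0.0013), and on day 3 its libraries lay just below day 0 (-0.18, adjusted p = 0.276), which differed from day 1 by 0.55 ± 0.13 (SE, adjusted p = 0.00257). Other alpha subunits were called later. Gabra3 was called from day 3 (-1.04 ± 0.15 SE, adjusted p = 1.97e-05) and Gabra4 from day 3 (-0.93 ± 0.20 SE, adjusted p = 0.00141), reaching -1.88 on day 4. Gabra2 was called on day 4 only (-0.61 ± 0.17 SE, adjusted p = 0.00908), after 0.17 on day 3 (adjusted p = 0.406), and the call was lost without day 4 replicate 2 (adjusted p = 0.102). Gabrb1 stood between 9.14 and 15.6 CPM in all libraries and was not called, and Gabrd stayed at 0.567 to 5.09 CPM.

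The GABA-rho subunits Gabrr1 and Gabrr2 form the slow GABA receptors of bipolar cell terminals. Gabrr2 stood at 3.68, 2.29 and 0.0778 CPM on day 0, 1.59, 1.64 and 1.2 on day 1, 2.01 and 2.06 on day 2, 2.26, 4.89 and 1.5 on day 3, and 1.64 and 4.97 on day 4. For Gabrr2 the day 0 libraries overlapped those of every other day. Gabrr1 stood at 2.06, 2.16 and 1.75 CPM on day 0 and at 0.561 and 0.268 on day 2, without overlap (-2.25 ± 0.90 SE, adjusted p = 0.0715). Neither gene was called on any day in this fit, while DESeq2 called Gabrr1 lower on day 2 (adjusted p = 0.023). These values rest on few counts.

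GABA-B receptors work only as a pair of Gabbr1, which binds GABA, and Gabbr2, which couples to the G protein. Gabbr2 stood at 329, 349.8 and 378 CPM on day 0, 258, 274 and 230.0 on day 1, 189 and 182 on day 2, 98.9, 118 and 122 on day 3, and 109.8 and 96.4 on day 4. It fell on each day, with log2 fold changes of -0.47 ± 0.10 (SE, adjusted p = 0.00428) on day 1, -0.92 ± 0.11 (SE, adjusted p = 7.92e-06) on day 2, -1.64 ± 0.10 (SE, adjusted p = 9.5e-10) on day 3 and -1.77 ± 0.11 (SE, adjusted p = 2.65e-09) on day 4. Gabbr1 stood at 316, 318 and 334 CPM on day 0, 274, 313 and 318 on day 1, 281 and 255 on day 2, 277, 240.4 and 211 on day 3, and 233 and 229 on day 4. Its day 1 libraries overlapped day 0, and the log2 fold change was -0.41 ± 0.09 (SE, adjusted p = 0.00194) on day 3 and -0.48 ± 0.11 (SE, adjusted p = 0.00143) on day 4. The count of Gabbr1 divided by that of Gabbr2 was 0.882 to 0.961 on day 0, 1.06 to 1.38 on day 1, 1.40 and 1.48 on day 2, 1.72 to 2.80 on day 3, and 2.12 and 2.37 on day 4, so that no day overlapped day 0.

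Glycine receptors, chloride channels of alpha subunits with Glrb, which ties them to the scaffold, summed to 298 to 324 CPM on day 0 and 241 to 299.5 CPM on day 3. Glrb stood at 207, 209 and 234 CPM on day 0, 177, 192 and 169 on day 1, 170.2 and 163 on day 2, 203, 186 and 175 on day 3, and 152 and 161 on day 4. It was lower on day 1 (-0.27 ± 0.08 SE, adjusted p = 0.0444), day 2 (-0.38 ± 0.09 SE, adjusted p = 0.00613) and day 4 (-0.47 ± 0.09 SE, adjusted p = 0.000734) and missed the threshold on day 3 (-0.20, adjusted p = 0.0617). The day 1 call was lost in 13 of 21 alternatives (adjusted p from 0.0539 to 0.139), among them leaving out replicate 2 or 3 of day 0 and replicate 1 or 3 of day 1. The day 2 call was lost without day 2 replicate 2 (adjusted p = 0.0711), and DESeq2 called day 3 (adjusted p = 0.0318). Glra1, the alpha subunit of fast glycine receptors, stood at 20.0, 12.9 and 17.5 CPM on day 0, 14.2, 17.1 and 13.7 on day 1, 16.4 and 10.3 on day 2, 36.4, 26.5 and 26.3 on day 3, and 21.9 and 18.5 on day 4. The day 3 libraries lay above all others, with a log2 fold change of 0.83 ± 0.21 (SE, adjusted p = 0.00455), and on day 4 the value was 0.27 (adjusted p = 0.399).

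The other alpha subunits fell. Glra2 went from 54.6, 56 and 57.4 CPM on day 0 to 46.8, 42.7 and 34.6 on day 3 (-0.44 ± 0.12 SE, adjusted p = 0.00689) and 36.9 and 41.6 on day 4. Glra3 went from 14.5, 13.6 and 8.01 CPM to 9.02, 6.63 and 5.09 (-0.80 ± 0.28 SE, adjusted p = 0.0327), where the highest day 3 library lay above the lowest day 0 library, and then to 5.23 and 4.03 on day 4 (-1.37 ± 0.33 SE, adjusted p = 0.00317). The Glra3 call on day 3 was lost without day 0 replicate 1 or 2 and without day 3 replicate 2 or 3 (adjusted p at least 0.0857). Glra4, at 5.63, 6.04 and 7.43 CPM on day 0 and 4.07, 2.14 and 0.376 on day 3, had a log2 fold change of -1.54 ± 0.59 (SE, adjusted p = 0.0466), a call that 12 of the alternatives removed, with adjusted p from 0.0543 upward.

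**Figure D3:**
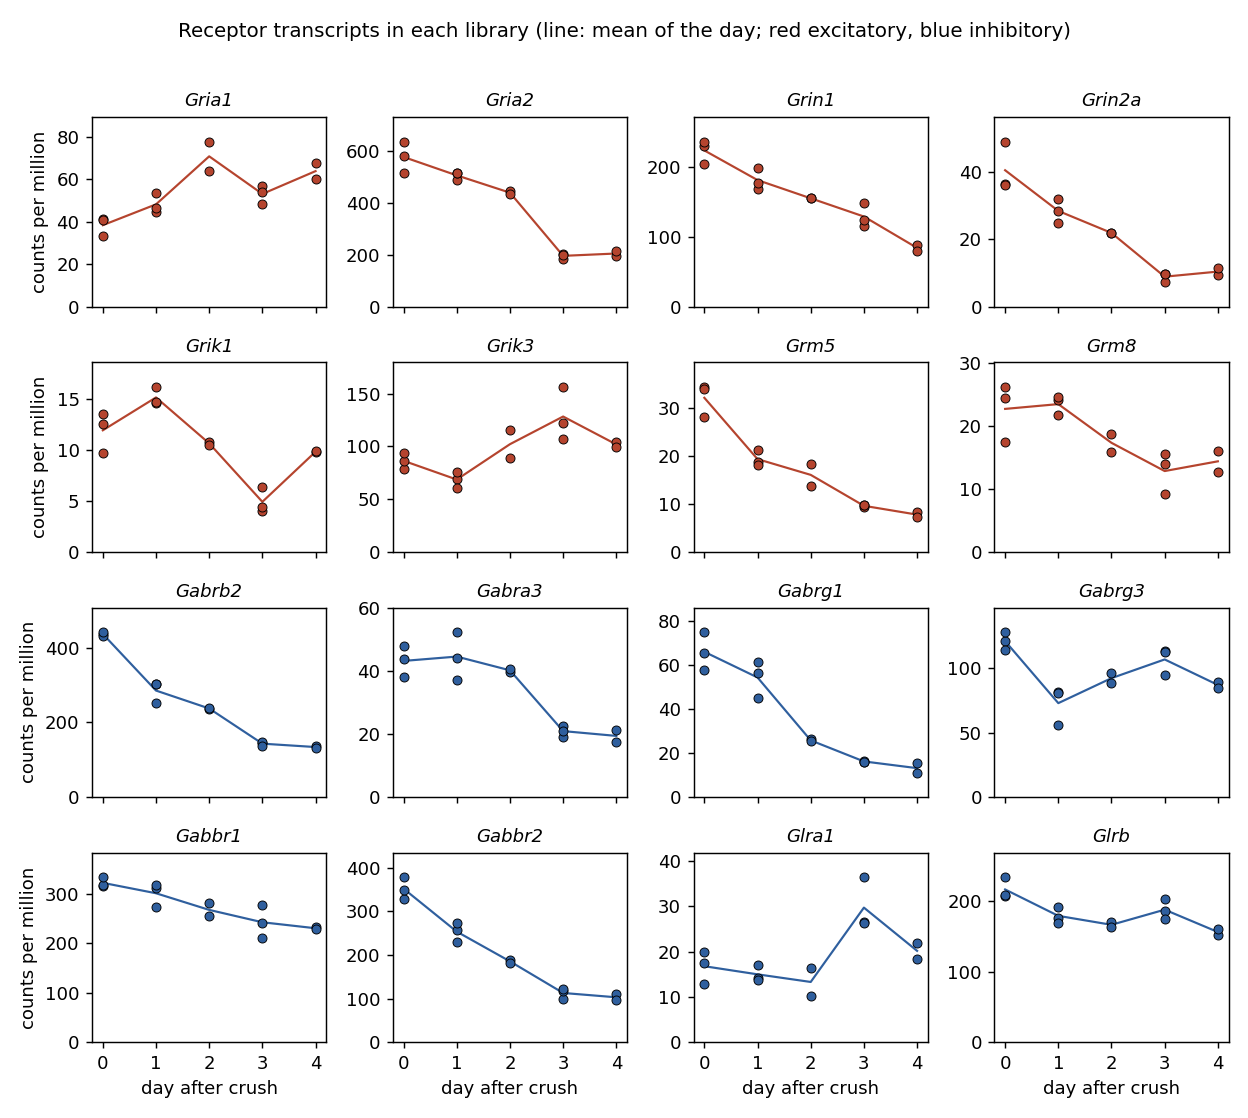
CPM of 16 receptor genes in each RNA library by day (points) with a line through the daily means, each panel from 0 and red for excitatory, blue for inhibitory genes. Gria1 and Grik3 end above where they began, Grik1 dips on day 3 alone, and Gabrb2, Gabbr2 and Grm5 decline from day 1.

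Between day 1 and day 3, 25 members fell and 3 rose, against 17.5% of all genes lower and 16.1% higher. Of the excitatory genes 15 fell and 1, Grik3, rose. Of the inhibitory genes 10 fell and 2, Gabrg3 and Glra1, rose. The largest further falls among genes above 10 CPM were those of Grin2d (-1.75, adjusted p = 0.00172), Gabrg1 (-1.75), Grin2a (-1.67), Grik1 (-1.62) and Gria2 (-1.37), the last 4 with adjusted p of at most 2.03e-05. Microglia markers moved between the same days, with 7 of 8 lower on day 3 than on day 1, and their part was not tested. Gabrb2 and Gabbr2, which had already been called on day 1, had further log2 changes of -1.0 and -1.17. The comparisons with day 0 share the same 3 day 0 libraries.

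Genes for the proteins that work beside these receptors were read from lists of partners, which were chosen with earlier results of these data known. Of 43 partners of glutamate receptors, 6, 14, 24 and 25 were lower on days 1 to 4, the last 3 being 32.6%, 55.8% and 58.1%, against 5.45%, 14.5%, 20.1% and 19% of all genes. On the same days 3, 4, 4 and 3 were higher (7.0%, 9.3%, 9.3% and 7.0%), against 5.93%, 14.8%, 20.4% and 19.8%. By role, 7 of 16 auxiliary subunits and 17 of 27 scaffold, kinase and adhesion genes were lower on day 3. Cacng5, an auxiliary subunit of AMPA receptors, stood at 300.3, 293 and 346 CPM on day 0, 239, 213 and 219 on day 1, 123 and 114 on day 2, 54.1, 48.2 and 53.2 on day 3, and 42.6 and 43.3 on day 4. The day 3 libraries lay far below every earlier library (-2.59 ± 0.09 SE, adjusted p = 3.79e-12). Nptx1, a secreted pentraxin that clusters AMPA receptors, changed by -1.41 on day 3 and -2.44 ± 0.11 (SE, adjusted p = 5.5e-11) on day 4, and the kinase genes Camk2a and Camk2b by -2.19 ± 0.13 (SE, adjusted p = 5.36e-10) and -1.41 ± 0.10 (SE, adjusted p = 1.1e-08) on day 3.

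Of 21 tested partners of inhibitory receptors, 5, 7, 11 and 9 were lower on days 1 to 4 (23.8%, 33.3%, 52.4% and 42.9%) and 1, 2, 5 and 5 higher. The higher share of 23.8% on days 3 and 4 was close to the 20.4% and 19.8% of all genes. Slc12a5, the potassium-chloride cotransporter KCC2 that keeps neuronal chloride low, stood at 1253, 1141 and 1162 CPM on day 0, 762, 845 and 743 on day 1, 481 and 437 on day 2, 233, 212 and 175 on day 3, and 175 and 185 on day 4. No later library reached the day 0 range, and the log2 fold change was -0.60 ± 0.09 (SE, adjusted p = 0.00056) on day 1 and -2.52 ± 0.10 (SE, adjusted p = 5.15e-12) on day 3. Slc12a2, the transporter that brings chloride in, had a log2 fold change of -0.40 ± 0.13 (SE, adjusted p = 0.0237) on day 3. Slitrk3, an adhesion protein of inhibitory synapses, had -2.31 ± 0.15 (SE, adjusted p = 1.62e-09) on day 3, and Kctd8, an auxiliary subunit of GABA-B receptors, -1.20 ± 0.11 (SE, adjusted p = 1.74e-07). Igsf9b, another adhesion protein of inhibitory synapses, rose from 12.4, 12.6 and 14.9 CPM on day 0 to 33.5, 37 and 41.6 on day 3 (1.49 ± 0.15 SE, adjusted p = 3.28e-07). Of the 11 ganglion cell markers, 8 were lower on day 3 in the same libraries, against 20.1% of all genes, with a median log2 fold change of -1.18. The 1 marker called higher was Slc17a6 (0.38 ± 0.09 SE, adjusted p = 0.0021). The part of these marker changes in the receptor results was not tested.

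Chromatin at the receptor genes was read from 353 ATAC peaks that the authors' annotation assigns to members, 84 of them at promoters and 269 elsewhere. Library totals ran from 20006724 to 72579102 counts in peaks. The authors' deposited table of library covariates lists 2 batches: all 3 day 1 libraries were in batch 2, and day 0 and day 3 had 3 libraries in each batch, so the fit held batch as a term. The fraction of reads in peaks was 0.322 to 0.496 on day 0, 0.157 to 0.186 on day 1 and 0.173 to 0.456 on day 3. It moved with the day, so its part in the results below cannot be told apart from that of the day. Counts from a fit that also held this fraction are given beside the main ones.

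On day 3 promoter peaks of receptor genes, more of them inhibitory than excitatory, were called less accessible in the fit with a batch term. Of 84 promoter peaks 27 were lower and 2 higher, against 8.97% and 10.1% of all promoter peaks. Of 37 inhibitory promoter peaks 19 were lower (51.4%), and of 47 excitatory ones 8 (17.0%), with median log2 fold changes of -0.33 and -0.03. Within batch 2 alone, 21 inhibitory and 8 excitatory promoter peaks were lower. Without the batch term these counts were 5 and 2, and in a fit that also held that fraction they were 8 and 3. Lower calls over all peaks also changed with the fit. They were 11200 in the main fit, 18920 in batch 2 alone, 3609 without the batch term and 4819 with that fraction. The difference between inhibitory and excitatory promoter peaks was not tested.

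Taking for each gene the promoter peak with the most counts, 14 of 19 inhibitory and 6 of 24 excitatory genes had a lower peak on day 3. The share of all genes with a lower peak chosen in this way was not computed. The 8.97% given above covers all promoter peaks, whatever their counts, and is not a like background for these genes. The 6 excitatory genes were Gria1, Gria2, Grin1, Grik1, Grm5 and Grm6. Of these 20 peaks, 19 were also called lower in batch 2 alone, 4 in the fit that also held the fraction of reads in peaks, with Gabrr1, Gabrr2 and Grm5 among them, and 2, Gabrr1 and Gabrr2, without the batch term. The replicate block kept 16, and leaving out single libraries kept 12 to 20, with the fewest without day 3 replicate 2. The Gabbr2 call was lost in 10 of 22 alternatives (adjusted p from 0.051 to 0.494). Gabrb1 and Glra4 had no promoter peak.

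The promoters of the GABA-rho genes had the largest falls among the main promoter peaks. The Gabrr1 peak at chr4:33131742-33135232 (mm10) stood at 14.5, 10.8 and 8.64 CPM on day 0 and 6.85, 7.28 and 6.08 on day 3 in batch 1, and at 10.4, 10.6 and 9.43 on day 0, 8.79, 10.1 and 6.43 on day 1 and 4.56, 5.26 and 5.69 on day 3 in batch 2. Day 3 did not overlap day 0 in either batch or over both, and the log2 fold change was -0.86 ± 0.13 (SE, adjusted p = 6.56e-05). The Gabrr2 gene lies beside Gabrr1, and its own peak at chr4:33061038-33070893 had -0.76 ± 0.12 (SE, adjusted p = 5.69e-05). Neither transcript was called, at 0.0778 to 4.97 CPM.

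The Gria2 peak at chr3:80797704-80804062 stood at 60.2, 56.6 and 52.3 CPM on day 0 and 40.0, 56.1 and 54.3 on day 3 in batch 1, and at 32.5, 50.6 and 33.8 on day 0, 32.2, 36.5 and 30.6 on day 1 and 27.9, 16.8 and 17.5 on day 3 in batch 2. Batch 1 libraries of the 2 days overlapped. Its log2 fold change of -0.53 ± 0.15 (SE, adjusted p = 0.0143) was not called without the batch term (adjusted p = 0.403) or with the fraction of reads in peaks (adjusted p = 0.227), nor without day 3 replicate 2 or 3 (adjusted p = 0.0517 and 0.05). The Grm5 promoter peak had -0.64 ± 0.15 (SE, adjusted p = 0.00353) and that of Gabrg1 -0.53 ± 0.13 (SE, adjusted p = 0.00379). Neither was called without the batch term (adjusted p = 0.284 and 0.247), and with the fraction of reads in peaks that of Gabrg1 was not called (adjusted p = 0.0632). The promoter of Grik3, whose transcript rose, had 0.24 ± 0.12 (SE, adjusted p = 0.167), and that of Grin2b 0.32 ± 0.13 (SE, adjusted p = 0.0795), so neither was called.

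**Figure D4:**
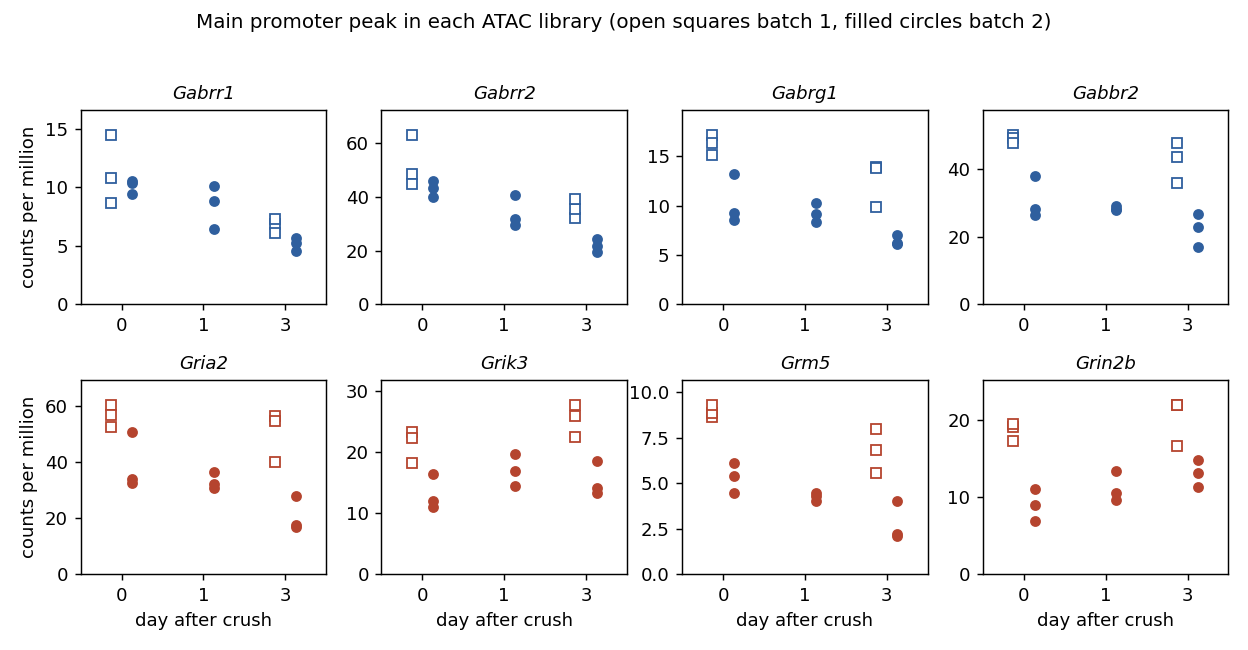
CPM in the main promoter peak of 8 receptor genes in each ATAC library by day, with batch 1 as open squares and batch 2 as filled circles, each panel from 0. Batch 1 lies above batch 2 in most panels, and within each batch the Gabrr1 and Gabrr2 peaks are lower on day 3 than on day 0.

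Promoter and transcript were then set side by side for each gene. Among 43 genes with a promoter peak, 27 had a lower transcript on day 3 and 13 of these also a lower main promoter peak, while 7 genes had a lower peak without a lower transcript. Among these 7 were Gria1 (peak -0.42, RNA 0.47) and Glra1 (peak -0.52, RNA 0.83), whose transcripts rose. Neither of these peak calls held without the batch term (adjusted p = 0.177 and 0.117) or with the fraction of reads in peaks (adjusted p = 0.098 and 0.0838). Spearman's rho between the 2 log2 fold changes was 0.04 and Pearson's r -0.04 over the 43 genes, which share their libraries and are not independent. Grin2a and Grin2d, with large falls in RNA, had promoter values of -0.23 (adjusted p = 0.307) and -0.12 (adjusted p = 0.395).

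**Figure D5:**
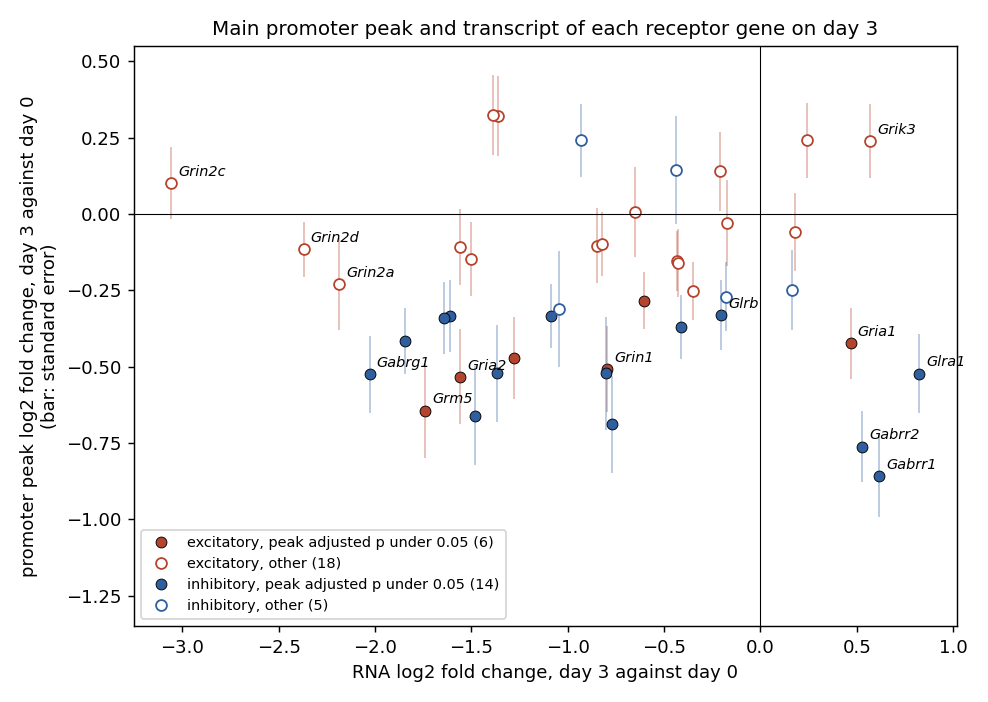
Log2 fold change of the main promoter peak (vertical, with its standard error) against that of the transcript (horizontal) on day 3 for 43 receptor genes, red for excitatory and blue for inhibitory, filled where the peak's adjusted p was under 0.05. The filled points, 14 blue and 6 red, all lie below 0 and run from -2.03 (Gabrg1) to 0.83 (Glra1) on the RNA axis.

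Away from promoters more member peaks were higher than lower. Of 269 member peaks outside promoters 58 were higher and 17 lower on day 3, against 18.7% and 6.83% of all such peaks, so that the share higher (21.6%) was close to the background. Of the excitatory genes' peaks 41 of 134 were higher (30.6%), and of the inhibitory genes' 17 of 135 (12.6%). Over all member peaks, the largest rise on day 3 was in an intron of Grm8 at chr6:28052076-28052467, which stood at 0.385 to 0.761 CPM on day 0 and 1.57 to 3.3 CPM on day 3 (1.92 ± 0.21 SE, adjusted p = 1.16e-06). A peak in an intron of Grm7 at chr6:111139029-111139509 stood at 0.364 to 0.884 and 1.22 to 2.12 CPM (1.80 ± 0.22 SE, adjusted p = 3.29e-06). A peak at chr17:37061545-37061708, which the annotation counts as promoter of Gabbr1, stood at 0.163 to 0.361 and 0.741 to 1.29 CPM (1.80 ± 0.23 SE, adjusted p = 5.54e-06). The gene runs from 37045966 to 37075067 on the plus strand, so this peak lies inside it. Its annotated distance of -1276 bases is thus not measured from the start of the gene. The 6 libraries of each day did not overlap at any of the 3 peaks. Among the largest falls were those at -86250 bases from the start of Gabra2, at chr5:71182099-71182268 (-1.20 ± 0.27 SE, adjusted p = 0.00217) and at -4157 bases from that of Gabrd, in an intron of another gene model, at chr4:155402269-155402843 (-1.13 ± 0.18 SE, adjusted p = 0.000111).

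On day 1, 31 of the 353 member peaks were higher and 1 lower, against 5.44% and 2.4% of all peaks. These counts changed with the fit: 0 higher calls were made without the batch term, 1 in the fit that also held that fraction and 71 higher with 17 lower in batch 2 alone. Calls over all peaks moved as well. They were 0 higher and 0 lower without the batch term, 855 and 40 with that fraction, and 22069 and 18748 in batch 2 alone. Same-numbered libraries of day 0 and day 1 deviated together. With the replicate number as a block 15 member peaks were higher and 0 lower, and over all peaks 4995 and 1217. Every day 1 library had a lower fraction of reads in peaks than every day 0 library, and 2 day 3 libraries lay within the day 1 range.

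The authors also deposited footprint scores for 4 stress-related bZIP transcription factors, computed per day on pooled libraries, so they have no replicate error. Their columns are headed nonTarget, a term that the labels do not explain. A footprint is a dip in transposase cuts where a bound protein covers its motif. For ATF3, 36 sites were assigned to 18 member genes, of which 7, 27 and 24 were called bound on days 0, 1 and 3 (19.4%, 75.0% and 66.7%). Of all 20364 ATF3 sites 32.6%, 72.7% and 81.5% were called bound. The 17 excitatory sites went from 2 to 11 and 14 bound, and the 19 inhibitory sites from 5 to 16 and then 10. For ATF4 all 12 member sites belonged to excitatory genes, with 1, 7 and 9 bound, against 25.8%, 69.3% and 77.4% of all its sites. CEBPG had 20 member sites with 2, 13 and 15 bound, against 27.7%, 70.9% and 78.4%. DDIT3 had 10 with 1, 6 and 8 bound, against 25.1%, 70.0% and 77.8%. For these 3 factors the bound share of members was 8.3% to 10.0% on day 0, below the 25.1% to 27.7% of all sites. It was 58.3% to 65.0% on day 1, against 69.3% to 70.9%, and 75.0% to 80.0% on day 3, against 77.4% to 78.4%. These shares rest on 10 to 20 member sites per factor. Some sites are assigned to several factors with like motifs.

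Near promoters, the ATF3 site of Grin2b at chr6:136173626-136173636 (mm10), at -115 bases from the start, scored 0.237, 0.491 and 0.351 on days 0, 1 and 3 and was called bound on all 3. In the Grm7 window printed above, the site at chr6:110645427-110645441 reads TGATGATGCAAACCG and was assigned to ATF4, CEBPG and DDIT3 alike, with scores of 0.236, 0.398 and 0.303 and bound on each day. The Gabbr2 site for ATF3 at chr4:46992512-46992520, at -639 bases, scored 0.0823, 0.275 and 0.114 and was called bound on day 1 only. The Grik3 site for ATF3 at chr4:125490928-125490938, at 228 bases, scored 0.0993, 0.0996 and 0.167 and was called bound on day 3 only. At all 4 sites the day 1 or day 3 score was above day 0, as was the median over all ATF3 sites, which went from 0.109 to 0.176 and 0.194.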

How the data were processed

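The labels list 15 RNA and 15 ATAC samples, of which 13 RNA and 15 ATAC libraries were analysed here. The authors deposited raw counts per gene and per consensus ATAC peak. Per the submitters' processing notes, the RNA tools were STAR, HTSeq, Picard and edgeR, and the ATAC tools included Bowtie2, MACS2, featureCounts, ChIPseeker and DESeq2, on mm10. Their roles and versions are not stated in these notes. RNA libraries were made with SMART-Seq v4, per the labels' protocols, a kit that does not mark strand, so reads of a gene and an antisense partner cannot be told apart. The authors also deposited batch numbers, the fraction of reads in peaks, GC fractions of peaks, scores for sequencing components, and footprint scores with bound calls on pooled libraries.

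Both count tables were fitted in edgeR 4.0.16, under R 4.3.3 (TMM, filterByExpr with a minimum count of 10, quasi-likelihood F test), with day as the factor and, for ATAC, batch as a term. P-values were adjusted by Benjamini and Hochberg over all genes or peaks, with a threshold of 0.05. CPM used TMM-scaled library sizes. Both fits were tested on simulated data.

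The members and lists were chosen with earlier results of these data known. Genes named with library values were, per class, the one with the highest day 0 level and up to 3 rises and 3 falls on day 3. No exon lengths were at hand, so mean CPM stood in for level per kilobase in that choice, and levels were not compared between genes. Of the 45 members, 4 are counted but not reported singly here. Grin2b, Grin3a, Gabra3, Gabra4, Gabrg3, Grm7, the ATAC peaks of genes outside that rule and the single footprint sites were added after their values were seen, to account for every member. Partners were up to 4 per list by the joint test, plus Slc12a2. Peaks were the promoter peak with the most counts and, with a mean count of at least 20, the 3 largest rises and falls. Replicate numbers did not pair the RNA libraries, where same-numbered libraries correlated at -0.126 to 0.068, nor the ATAC libraries of days 0 and 3 (-0.207 to 0.191). For ATAC on days 0 and 1 every same-numbered pair correlated above 0.1 (0.118 to 0.223), a pairing read from the data, as the labels do not say what a number marks. Alternatives were DESeq2 1.42.0, other scaling and filters, added terms, a replicate block and leaving out each library. Peak lists per library, accessibility contrasts and factor scores deposited by the authors were not used here.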

Additional observations from a re-analysis of the deposited data

Results flagged for a closer look

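The difference between day 3 and day 1 was tested for genes whose change from day 0 had opposite signs on those days, and 9 members passed. They were lower on day 3 than on day 1 in Grin2c (log2 change -3.16), Grik1 (-1.62), Gabra3 (-1.09), Grm8 (-0.87), Grik2 (-0.69), Grm7 (-0.65) and Grm4 (-0.63). Grik3 (0.90) and Glra1 (0.99) were higher on day 3 than on day 1. On day 1 these 9 genes missed the threshold against day 0 in edgeR, so the opposite sign on that day is a sign of the estimate and not of a called change.

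In 64 groups of 6 ATAC libraries examined, 2 held a library apart from the others, where chance gives about 1 in 20 groups. The highest of the 6 day 0 libraries stood at 14.76 CPM in the main promoter peak of Grin2c, where the next was at 11.62 and the lowest at 9.89. The lowest of the 6 day 3 libraries stood at 1.223 CPM in the Grm7 intron peak that rose, where the next was at 1.84 and the highest at 2.12.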

How the results depend on the processing

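No called change of a member transcript turned its direction under any alternative run. The same held for the main promoter peaks of the genes chosen by rule and for the 3 largest rises and falls among peaks. Direction was not checked in this way for the other member peaks. The day 1 count of 3 excitatory members lower was 7 with DESeq2, 5 with DESeq2 size factors in edgeR or a mean count of at least 20, and 1 with library size only, with sequencing components as terms or with only the 2 days compared. Leaving out each library gave 1 to 3. The day 1 count of members higher was 1 with library size only, a scaling that shifted the median of all genes to 0.12 on day 2, 0.10 on day 3 and 0.15 on day 4. Asking also for a fold change of at least 2 left 0 excitatory and 0 inhibitory members lower on day 1 and 1 and 2 on day 2. It left 10 excitatory and 8 inhibitory members on day 3, and 10 and 11 on day 4. For day 3 against day 1 it left 9 excitatory and 5 inhibitory members. By that rule 0 members were higher in each of days 2, 3 and 4 and day 3 against day 1. Over all genes 25, 477, 1160 and 1203 were lower by it on days 1 to 4, and 1078 for day 3 against day 1. The excitatory minus inhibitory median, which has no test, changed sign on days 1, 3 and 4 under some alternatives. It was -0.521 on day 3 and -0.103 on day 4 for ionotropic receptors, and on day 4 it was 0.071 with sequencing components and 0.143 with the replicate block. Leaving out each library gave -0.009 to 0.155 on day 1, 0.015 to 0.231 on day 2, -0.209 to 0.107 on day 3 and 0.108 to 0.329 on day 4. For single RNA values the replicate block, whose numbers do not pair the libraries, removed 5 calls and added 2 of 225.

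In ATAC on day 3, excitatory promoter peaks lower went from 8 to 2 without the batch term and 3 with the share of reads in peaks, and inhibitory ones from 19 to 5 and 8. Peaks outside promoters that were higher went from 58 to 23 without the batch term and 39 with that share, and those lower from 17 to 11, 11 and, in batch 2 alone, 26. With the replicate block these 4 counts were 7, 16, 59 and 17. Leaving out each library gave 14 to 26 for the last. Over all peaks, 24923 higher and 11200 lower calls on day 3 became 10857 and 3609 without the batch term. With that share they were 16475 and 4819. On day 1 member peaks higher were 0 without the batch term, 71 in batch 2 alone, 1 with the share of reads in peaks, 85 with library size only and 15 with the replicate block, and 1 to 42 without each library. Those lower were 0, 17, 0, 0 and 0 in the same order, 4 with DESeq2, and 0 to 4 without each library. Over all peaks the day 1 calls were 8249 higher and 3635 lower in the main fit. They were 0 and 0 without the batch term, and 25176 and 2012 with library size only. The cause was not tested. Depth limits Grin2c, Grin3b, Grik4, Grm2, Grm6, Gabrd, Gabrr1 and Gabrr2, whose day 0 means lay below 4 CPM.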
